A study of Saccharomyces cerevisiae with 2 samples.

Results

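The genes described here are the nuclear genes for mitochondrial ribosomal proteins of *Saccharomyces cerevisiae*. They were taken from the R64 annotation (sacCer3) as the nuclear protein-coding genes whose symbol begins with MRPL, MRPS, RSM or MRP and goes on with a digit. The rule found 67 of 6002 nuclear protein-coding genes. The annotation calls 38 of them proteins of the large (54S) subunit and 27 proteins of the small (37S) subunit of the mitochondrial ribosome. The other two are MRP8, whose product the annotation names only Mrp8p, and RSM22, annotated as a tRNA methyltransferase. By their uniform names, 27 members have counterparts in all ribosomes, 14 in bacterial ribosomes, and 24 occur in mitochondrial ribosomes alone.

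Mitochondrial ribosomes translate the few messenger RNAs encoded by mitochondrial DNA, most of which specify membrane subunits of the respiratory chain and ATP synthase. In budding yeast nearly all of their proteins are encoded in the nucleus, made in the cytosol and imported. Promoters of yeast genes usually hold a nucleosome-depleted region upstream of the first nucleosome of the gene, and general regulatory factors such as Abf1 and Reb1 bind in many of these regions.

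Accessibility was measured by NOMe-Seq, in which a DNA methyltransferase marks its target cytosines where the DNA of nuclei is open and bisulfite sequencing reads the marks. Both groups used formaldehyde-fixed nuclei of the wild-type strain S288C grown at 30 °C, from zymolyase-treated cells. The nuclei of one group were treated with CCMT, an N-terminally truncated M.CviQIX that targets the first C of CC, and those of the other with GCMT, or M.CviPI, which targets the C of GC, each at 37 °C for 1 h. The labels give 1% formaldehyde and 0.1% of the detergent NP-40, whereas the volumes and concentrations in the study's methods differ from these. The study lists its CCMT yeast library under another sample record than that of the CCMT library used here, so these may be different libraries. There was 1 library per enzyme, so no value has a replicate error and no difference was tested. The 95% exact binomial (Clopper-Pearson) intervals given below cover the counting of reads only, and are too narrow where a read spans several cytosines. Budding yeast has no DNA methylation of its own, so the level away from promoters served as the background.

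The methylation level of a cytosine is the percentage of its reads that were methylated, and cytosines with at least 5 reads were used. Positions are counted from the A of the initiation codon. The stretch from −250 to −100 bp is called the open region of a gene, and that from 100 to 500 bp its gene body. A level of a region is the mean over its cytosines, with at least 3 cytosines required. The median coverage of a cytosine was 31 reads in the CCMT library and 13 in the GCMT library. The members' open regions held 605 CC cytosines with 18928 reads and 757 GC cytosines with 10319 reads. GC reads the same on both strands, so its cytosines lie in adjacent pairs and the GC sites are fewer than the GC cytosines. A single member had 36 to 608 reads in the CCMT library and 19 to 381 in the GCMT library.

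The open regions of the 3 highest and the 3 lowest members are printed here because they hold the extremes of the family. Each is given 5′ to 3′ on the strand of the gene, from −250 to −100 bp, in the R64 build. Capitals mark the bases whose target cytosine, on either strand, had a level of at least 30% in at least 1 library.
MRPL15 (chrXII:759230-759380, + strand): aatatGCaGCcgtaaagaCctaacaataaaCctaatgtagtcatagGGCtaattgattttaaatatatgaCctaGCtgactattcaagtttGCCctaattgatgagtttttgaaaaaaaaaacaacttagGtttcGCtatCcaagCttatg
MRPL11 (chrIV:98225-98375, + strand): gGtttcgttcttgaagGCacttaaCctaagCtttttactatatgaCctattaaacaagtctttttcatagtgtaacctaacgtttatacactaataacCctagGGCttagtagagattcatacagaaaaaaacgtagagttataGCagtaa
MRP20 (chrIV:1277396-1277546, + strand): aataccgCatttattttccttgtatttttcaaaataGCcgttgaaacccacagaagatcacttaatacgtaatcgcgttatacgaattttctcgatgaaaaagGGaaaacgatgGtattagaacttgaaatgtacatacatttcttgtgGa
MRPL10 (chrXIV:104202-104352, − strand): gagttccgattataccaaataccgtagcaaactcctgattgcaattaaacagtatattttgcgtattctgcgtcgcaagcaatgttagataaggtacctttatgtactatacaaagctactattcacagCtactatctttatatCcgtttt
MRPL50 (chrXIV:670293-670443, − strand): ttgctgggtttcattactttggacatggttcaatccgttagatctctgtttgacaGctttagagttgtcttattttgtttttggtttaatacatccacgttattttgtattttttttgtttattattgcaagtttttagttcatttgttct
MRP13 (chrVII:648242-648392, − strand): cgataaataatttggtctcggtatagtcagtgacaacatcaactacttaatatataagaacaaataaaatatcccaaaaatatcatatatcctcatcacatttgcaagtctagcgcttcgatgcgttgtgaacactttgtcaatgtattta

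In MRPL15, 9 of 10 CC cytosines and 13 of 15 GC cytosines stood at or above this level. In MRPL10 it was 1 of 7 CC cytosines and 1 of 16 GC cytosines, both in the third of the region nearest the gene, and in MRP13 it was none of 5 and none of 8. The MRPL50 region included 26 bases of the coding sequence of its neighbour SNF12 and the MRP13 region 10 bases, whereas the other 4 lay wholly between coding sequences.

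As a family, the members were open in a narrow stretch close to the initiation codon. Further upstream they were less open than other genes when the distance to the upstream neighbour was not matched. Their mean profile reached its maximum of 28.9% at −116 bp in the CCMT library and 32.7% at −108 bp in the GCMT library. The 5935 other genes reached 21.5% at −148 bp and 22.9% at −142 bp. The members' maximum was thus higher and nearer the gene with both enzymes.

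The stretch over which the profile stood above the midpoint between its maximum and the gene body was 123 bp long for the members in the CCMT library, from −185 to −63 bp. In the GCMT library it was 105 bp, from −186 to −82 bp. For other genes the same stretch was 221 bp and 257 bp long, with its upstream end at −292 and −331 bp. By this measure the peak of the members' mean profile was the narrower one, mainly on the upstream side. The midpoint was higher for members, at 18.5% and 20.3%, than for other genes, at 15.1% and 15.9%. The members' mean over cytosines from −250 to −201 bp, at 15.4% and 16.4%, was still above the midpoint of other genes. The width of a mean profile is also not the width of the open stretch in a single gene. The 138 genes for cytosolic ribosomal proteins, which serve the other ribosome of the cell, showed the opposite form, with stretches of 321 and 319 bp and maxima at −198 and −224 bp.

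**Figure D1:**
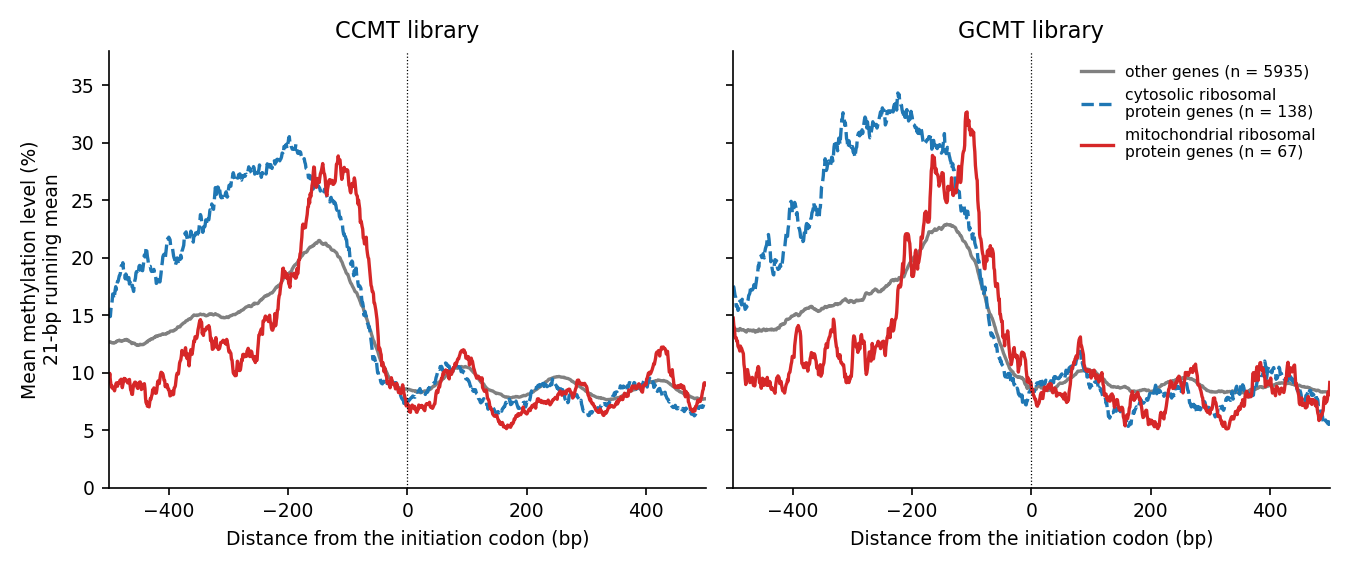
Mean methylation level (%) against the distance from the initiation codon (bp), as a 21-bp running mean, in the CCMT and GCMT libraries, for the 67 mitochondrial ribosomal protein genes (red), 138 cytosolic ribosomal protein genes (blue, dashed) and all 5935 other genes (grey, which include the cytosolic ones). The red line peaks at −116 and −108 bp, at 28.9% and 32.7%, and lies under the grey line upstream of the peak.

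The same form was seen in the medians over genes. From −150 to −101 bp the median member had a level of 27.6% in the CCMT library and 27.7% in the GCMT library, against 19.6% and 20.4% for other genes. From −100 to −51 bp the medians were 22.9% and 18.8% for members and 13.7% and 13.6% for other genes. Between −250 and −201 bp the order was reversed, with 11.1% and 10% for members and 13.3% and 13.5% for other genes. Further upstream, from −500 to −300 bp, the median member had 9.13% and 8.72%, other genes 10.4% and 10.3%, and cytosolic ribosomal protein genes 18.4% in both libraries. The 48 other genes of mitochondrial translation described below were lower still, at 8.58% and 8.23%, so a low level there was not particular to the members.

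Downstream of the initiation codon the members resembled the rest in the median level of the gene body, whereas their mean profile rose and fell further. The median gene-body level was 7.70% and 7.64% for members and 8.02% and 7.85% for other genes. The profile of the members had a first maximum of 12.0% at 93 bp and 13.1% at 82 bp, followed by a minimum of 5.14% at 166 bp and 5.15% at 212 bp. Other genes had 10.5% at 90 bp and 10.3% at 93 bp, then 7.80% at 172 bp and 8.34% at 175 bp. The mean over 67 genes is noisier than that over 5935, and no interval is given for these extremes.

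The level of the open region itself was a little higher in the members than in other genes. In the CCMT library the median member stood at 20.8%, with quartiles of 16.9% and 27.2% over 65 members, against 18.0% with quartiles of 11.7% and 24.7% for other genes. In the GCMT library it stood at 21.2%, with quartiles of 17.0% and 26.5% over 66 members, against 19.2% with quartiles of 11.8% and 27.3%. The medians differed by 2.82 and 1.99 percentage points, and the ranges of both sets overlapped almost wholly. MRP35 and RSM27 had too few CC cytosines and MRPL17 too few GC cytosines, which left 64 members with a level in both libraries.

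The share of members was below that of all genes at the low end and close to it at the high end. Only 3 of the 64 members (4.69%), MRPL10, MRPL50 and MRP13, were in the lower quartile of all genes in both libraries, against 15.4% of all genes. In the upper quartile in both libraries were 10 members (15.6%), a share close to the 14.1% of all genes. The quartiles lay at 12.0% and 24.9% in the CCMT library and at 11.8% and 27.3% in the GCMT library. Beside their own gene body, 60 of 64 members (93.8%) had the higher level in the open region in both libraries, against 79.7% of all genes. An excess of at least 2 times in both libraries was found in 37 of 64 (57.8%), against 44.6% of all genes.

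**Figure D2:**
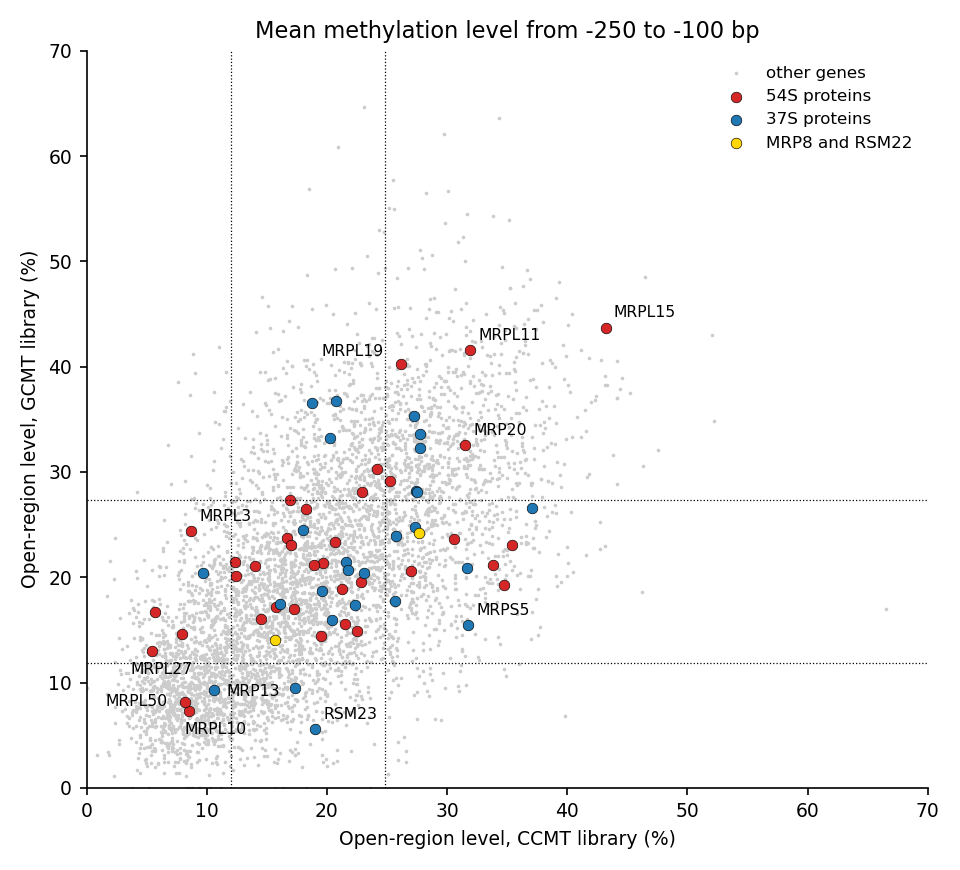
Open-region level (%, mean from −250 to −100 bp) in the CCMT library (x) and in the GCMT library (y); each point is a gene, members are coloured by subunit, and dotted lines are the quartiles of all genes. MRPL15 stands alone at 43.2% and 43.7%, and MRPL10, MRPL50 and MRP13 lie under both lower quartiles.

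The 4 members without the higher open region in both libraries were MRPL20, MRPL27, MRPS12 and MRP21. The first 3 fell below their gene body in the CCMT library alone, with 5.67%, 5.41% and 9.65% in the open region against 7.46%, 8.06% and 10.1% in the body. MRP21 did so in the GCMT library alone, with 9.49% against 10.3%. Across the 64 members the levels in the 2 libraries had a Pearson r of 0.53 and a Spearman rho of 0.51, and across 5479 other genes 0.64 and 0.67. The libraries read different cytosines of the same promoters and differed in depth, and genes are not independent replicates.

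Among the 10 highest members, which were named by the smaller of their percentile ranks over all genes, MRPL15 stood apart. This gene encodes mL57, a protein of the large subunit that only mitochondrial ribosomes have. Its open region had 43.2% in the CCMT library and 43.7% in the GCMT library, with intervals of the pooled reads from 37.5% to 48.6% and from 37.5% to 52.3%. These values put it at percentiles 99.7 and 98.5 of all genes. MRPL11 followed with 31.9% and 41.5%, and MRP20 with 31.5% and 32.6%. MRPL11 encodes uL10m, whose bacterial counterpart anchors the stalk of the large subunit, and MRP20 encodes uL23m, whose bacterial counterpart lies at the exit of the peptide tunnel.

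The MRPL15 level was not confined to a short stretch. High cytosines were spread over most of the 500 bp upstream, and its divergent neighbour ATG39 lies 646 bp away. The highest CC cytosine was at −157 bp, with 17 of 32 reads methylated (53.1%), and the highest GC cytosine at −288 bp, with 8 of 10 reads (80.0%, interval 44.4% to 97.5%). In MRP20, by contrast, the level rested on few cytosines, among them a GC cytosine at −214 bp with 6 of 7 reads methylated. The cytosine of the same GC on the other strand, at −213 bp, had 7 of 17 reads methylated (41.2%).

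The other highest members included both subunits. MRPL19, for uL11m of the large subunit, had 26.2% and 40.2%, and MRPL51, for mL43, had 25.3% and 29.1%. In the small subunit, RSM24 (mS35) had 27.8% and 33.6%, MRP10 (mS37) 27.7% and 32.3%, and MRP4 (uS2m) 27.2% and 35.3%. MRP2 (uS14m) had 27.4% and 28.2%, and MRPS17 (uS17m) 27.5% and 28.1%. The intervals of these 7 genes overlapped one another in the CCMT library, so that their order is not resolved at this depth. MRPL51 was the last member inside the upper quartiles, at percentiles 76.8 and 79.3, and MRPS9 the first outside, at 97.8 and 72.9.

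By the larger of its percentile ranks, among members with at least 5 cytosines in each library, the lowest member was MRPL10, which encodes uL15m of the large subunit. Its open region had 8.51% in the CCMT library and 7.25% in the GCMT library, with intervals of 4.66% to 13.2% and 3.91% to 10.7%. MRPL50, which encodes bL9m, had 8.16% and 8.19%, and MRP13, which encodes the mitochondria-specific mS44, had 10.6% and 9.29%. All 6 values were under the lower quartiles and close to the gene bodies of the same genes, which stood at 7.97% and 7.05%, 5.48% and 6.03%, and 10.3% and 7.64%.

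These low regions did not mean promoters without open DNA. In MRPL10 the highest 50-bp window was centred at −35 bp, with 31.4% and 47.9%, between the region measured and the initiation codon. The highest GC cytosine there was at −21 bp, with 12 of 16 reads methylated (75%, interval 47.6% to 92.7%). In MRP13 a GC cytosine at −22 bp had 9 of 15 reads methylated (60%, interval 32.3% to 83.7%). MRPL50 had its highest window at −95 bp, with 35.4% and 20.3%.

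**Figure D3:**
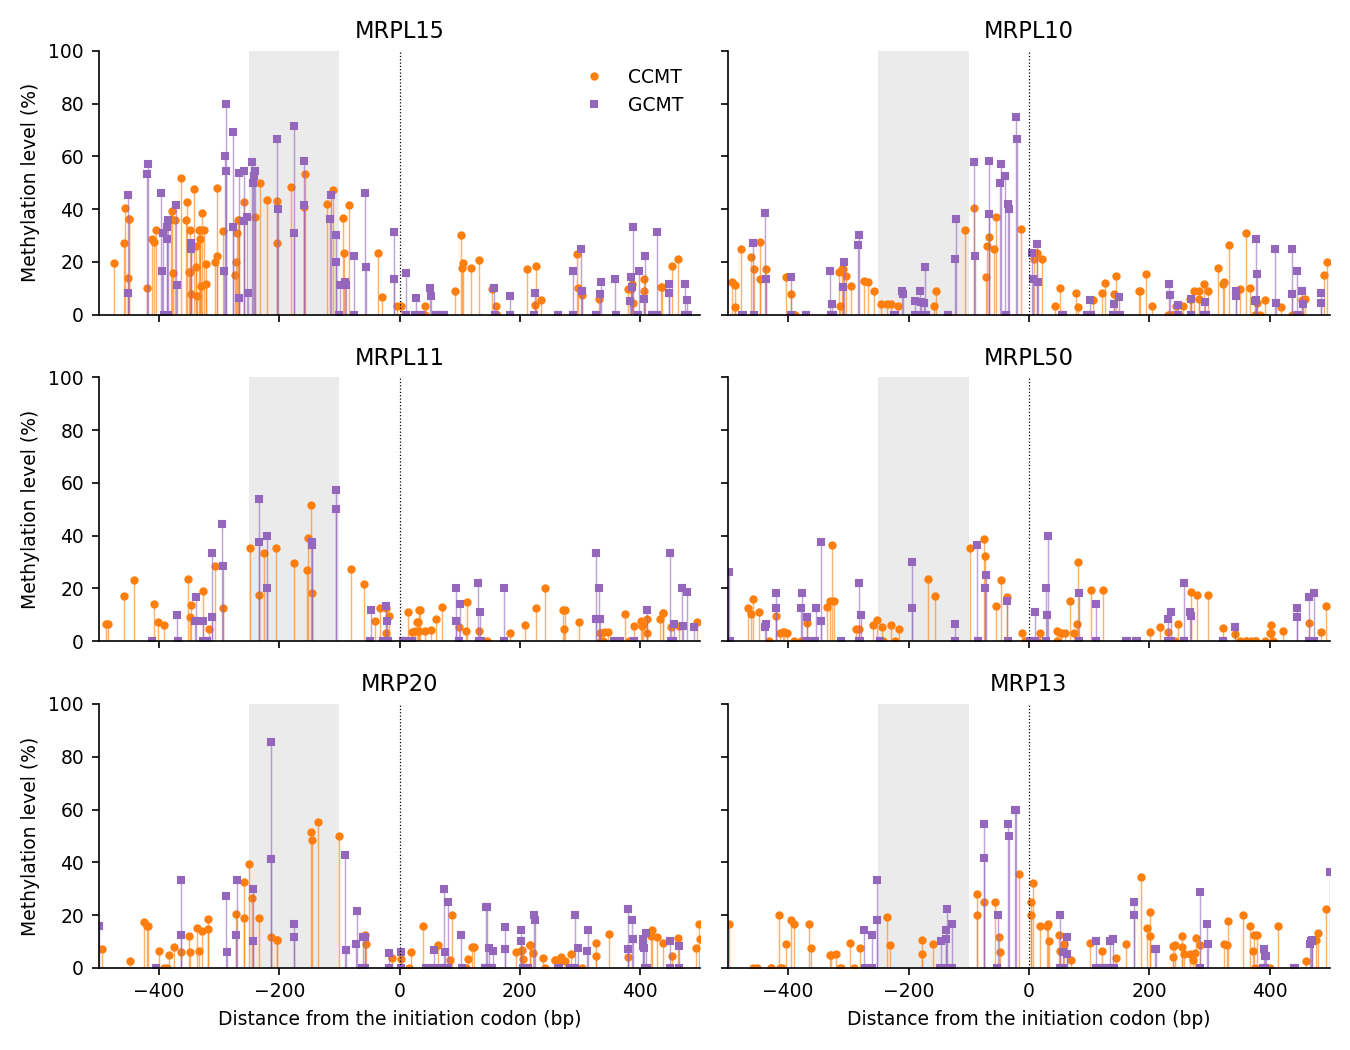
Methylation level (%) of every cytosine with at least 5 reads against the distance from the initiation codon (bp), CCMT as circles and GCMT as squares, for the 3 highest members (left) and the 3 lowest (right); grey marks −250 to −100 bp. MRPL15 is high over most of its upstream region, and in MRPL10 and MRP13 the high cytosines lie nearer the codon, up to 75% and 60%.

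The other 7 of the 10 lowest members were MRPL27, MRPL25, MRPL32, RSM22, MRPL20, MRPL37 and MRPS8. MRPL32, for bL32m, whose precursor is cut by the m-AAA protease before assembly, had 14.5% and 16.1% in the open region but 31.7% in both libraries from −200 to −50 bp. MRPL25 (mL59) had 7.95% and 14.6%, and 26.9% and 17.6% in the nearer region. MRPL27 (mL41) had 5.41% and 13.0%, and MRPL20 (mL58) 5.67% and 16.7%, with their highest windows at −75 and −55 bp. RSM22, MRPL37 (mL54) and MRPS8 (uS8m) were between 14.0% and 17.5% in both libraries, at percentiles from 32.4 to 44.3 of all genes.

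In 3 members the percentile ranks differed most between the libraries, and their intervals did not overlap. MRPS5, for uS5m, had 31.7% in the CCMT library (interval 25% to 38.3%) and 15.4% in the GCMT library (9.90% to 24.4%). MRPL3, for mL44, which has an RNase III-like fold, had 8.67% (5.59% to 12.5%) and 24.4% (15% to 27.1%). RSM23, for mS29, the counterpart of the human GTP-binding protein DAP3, had 19.0% (13.8% to 24.8%) and 5.56% (1.49% to 13.3%). These genes were chosen for the difference, so it is a description. The CC and GC cytosines of a promoter lie at different positions, and the part of enzyme and position in it was not tested.

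**Figure D4:**
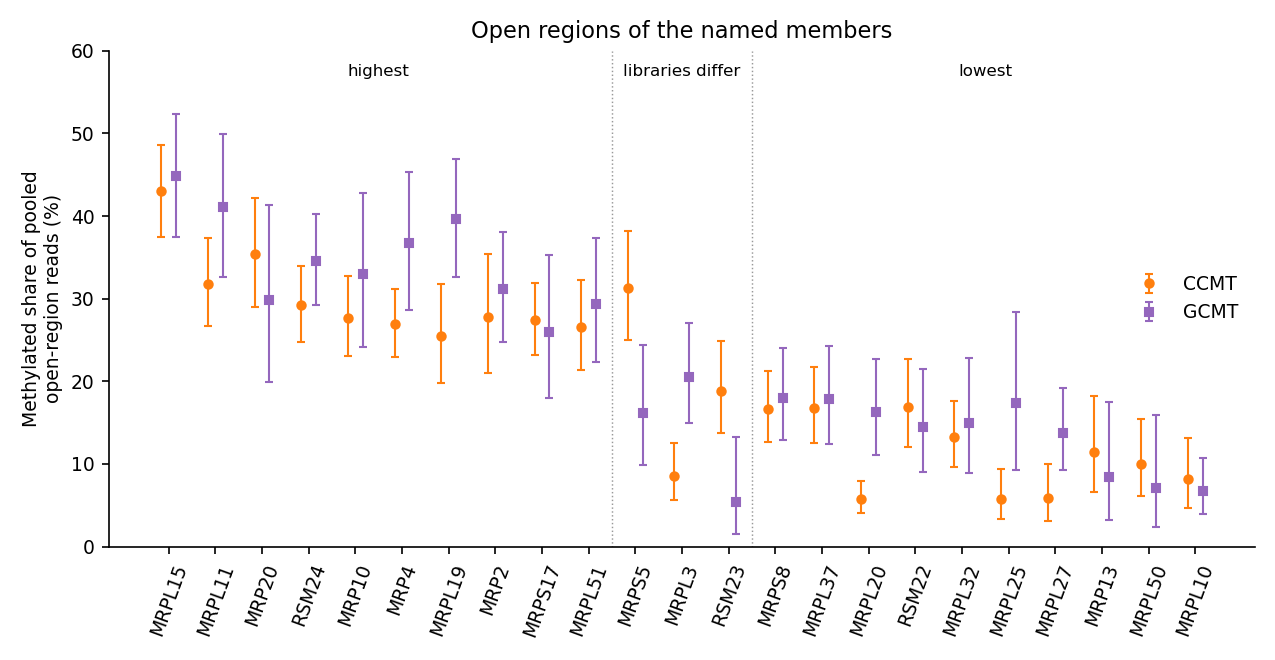
Methylated share (%) of the pooled reads of the open region in the CCMT (circles) and GCMT (squares) libraries for the 23 named members, with 95% exact binomial intervals; a gene's level in the text is instead the mean over its cytosines. MRPL15 is highest in both libraries, and the intervals of MRPS5, MRPL3 and RSM23 do not overlap between the libraries.

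The most open DNA of the members lay nearer the initiation codon than that of other genes. The highest of the 50-bp windows upstream of the initiation codon, by the mean of both libraries, could be placed in 62 members. It was centred within 200 bp of the codon in 51 of them (82.3%), against 54.3% of all genes. The median centre was −140 bp in members, −185 bp in other genes and −275 bp in cytosolic ribosomal protein genes. The level in this window differed less, with a median of 35.4% in members and 33.6% in other genes, which is an upper value by choice of the window. In 5 members (8.06%) it lay more than 300 bp upstream, against 24.9% of other genes.

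All of the 5 were genes of the small subunit. RSM10 and RSM7 had the highest window at −475 bp, MRPS18 at −355 bp, and MRPS35 and RSM26 at −315 bp. In RSM26, the nearest upstream neighbour at 214 bp is a tRNA gene, so the window lay beyond that gene's near end. RSM10 also had a second rise of 31.9% from −100 to −51 bp. In the large subunit the window was within 200 bp in 34 of 37 genes (91.9%), and in the small subunit in 16 of 23 (69.6%). This difference was not tested.

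**Figure D5:**
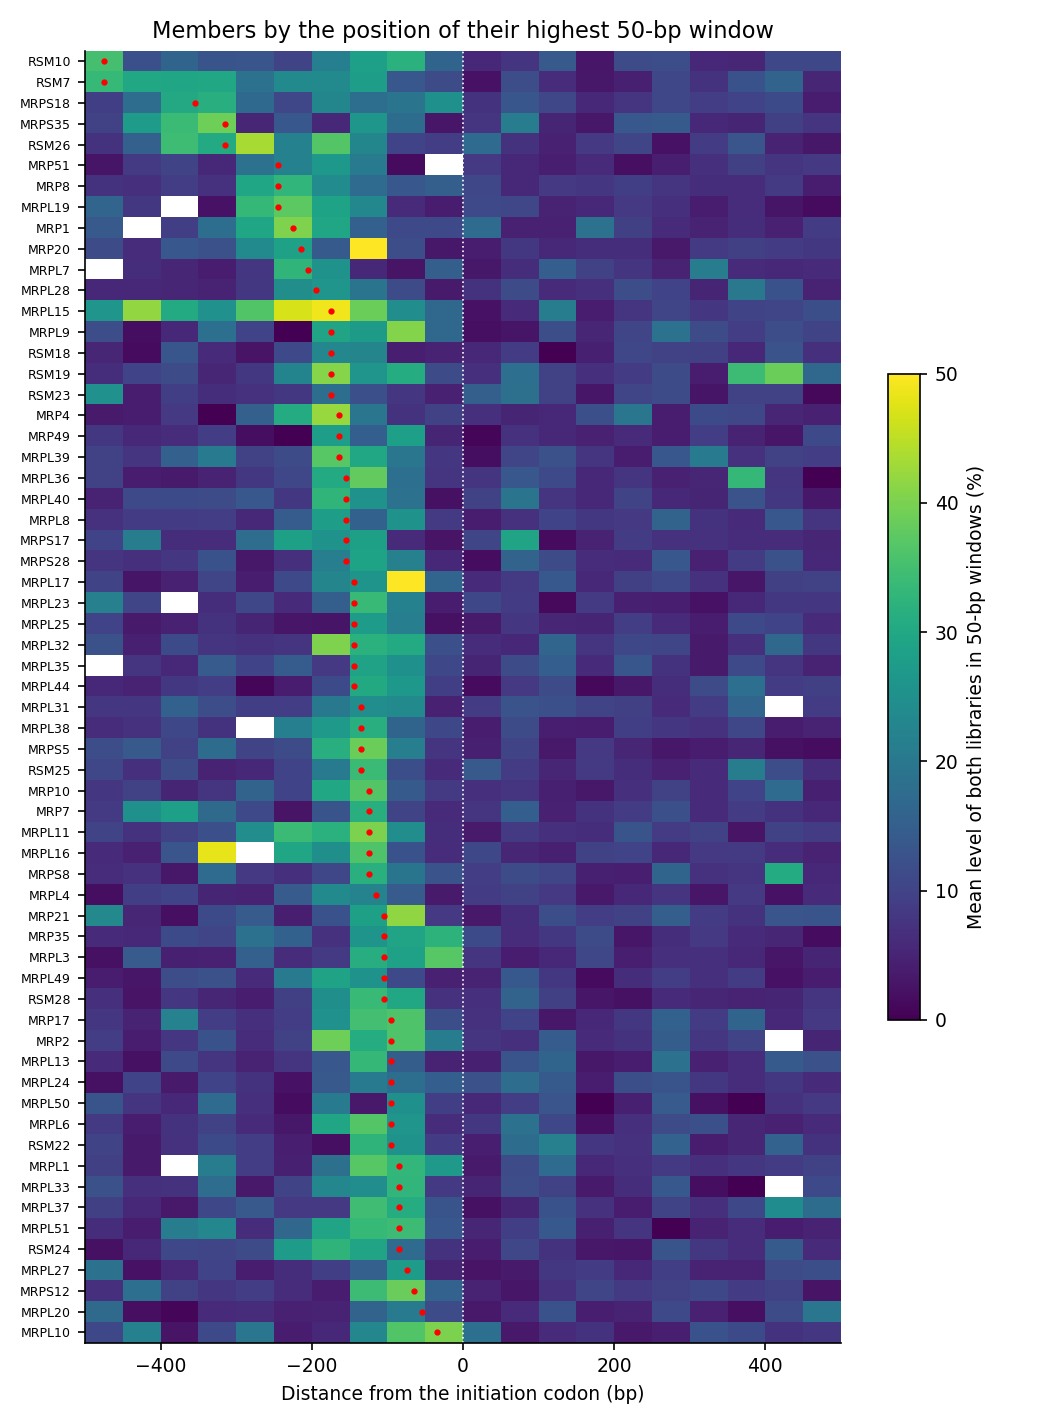
Mean methylation level of both libraries (colour, %) in 50-bp windows against the distance from the initiation codon (bp) for the 62 members whose highest window could be placed, ordered by its position (red dots, found at 10-bp steps with at least 2 cytosines per library); white has no cytosine. The dots of 51 members lie within 200 bp of the codon, and RSM10 and RSM7 at the top have theirs at −475 bp.

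The members also sat close to their neighbours. The median distance to the coding sequence or RNA gene upstream was 306 bp for members and 425 bp for other genes, and it was under 400 bp in 68.7% and 46.9%. The open region overlapped a coding sequence in 18 members (26.9%), against 17.6% of other genes. A divergent upstream neighbour was present for 38 members (56.7%) and 51.9% of other genes. MRPS12 and RSM19 are neighbours on the same strand, with 229 bp between them. The A+T share of the open region was alike, with medians of 64.9% and 64.2%.

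Among genes with an upstream distance of 200 to 400 bp, the open-region medians of members and other genes lay close together, at 20.7% and 19.6% in the CCMT library and 21.2% and 21% in the GCMT library. In this class 2 of 35 members (5.71%) were in the lower quartile of all genes in both libraries, against 8% of other genes. Under 200 bp the 8 members had 19.9% and 18.7%, against 11.4% and 12.3% for other genes, and over 400 bp 21 members had 22.5% and 21.4%, against 17.6% and 18.8%. From −200 to −50 bp the members were also higher in the class of 200 to 400 bp, at 24.1% and 25.1% against 20.9% and 22.0%. Their highest window was within 200 bp in 32 of 35 (91.4%), against 76.7% of other genes in the class. Its median centre in this class was −135 bp in members and −145 bp in other genes. Among genes over 400 bp from their neighbour, it was within 200 bp in 13 of 19 members (68.4%) and in 34.6% of other genes.

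The subunits and the kinds of protein were alike in the level of the open region. The 54S members had medians of 19.5% and 21.2%, and the 37S members 22.1% and 21.5%. Members with counterparts in all ribosomes had 22.5% and 21.3%, those with bacterial counterparts 21.6% and 20.1%, and the mitochondria-specific ones 19.0% and 20.9%. The quartiles of these classes overlapped in both libraries. From −200 to −50 bp, 54S and 37S members had 23.8% and 24.7% in the CCMT library and 24.4% and 24.3% in the GCMT library.

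Sequence matches to Abf1 and Reb1, factors known to keep promoters free of nucleosomes, were more frequent in the members' promoters than in all promoters. Both strands of the 250 bp before the initiation codon were searched. The Abf1 consensus was found in 19 of 67 members (28.4%) and in 11.6% of all 6002 promoters. The Reb1 motif TTACCCG was found in 10 members (14.9%) and in 7.03% of all promoters. One or the other was present in 29 members (43.3%), against 18.2% of all. Members with either match had open-region medians of 23.0% in both libraries, and members with none 19.5% and 20.9%. In other genes the same medians were 22.5% and 24.0% with a match and 16.8% and 17.8% without.

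Matches in members named above are printed with 8 bases on each side, 5′ to 3′ along the motif and with the match in capitals, to show where they lie relative to the open DNA.
Reb1 match of MRPL10 (chrXIV:104170-104176, −74 to −68 bp): tagttttcTTACCCGgctgaaac
Reb1 match of MRPL3 (chrXIII:321779-321785, −96 to −90 bp): ttcactctTTACCCGgctgcata
Reb1 match of MRPL19 (chrXIV:292871-292877, −208 to −202 bp): aattaatgTTACCCGcttcatta
Abf1 match of RSM24 (chrIV:814296-814308, −156 to −144 bp): gaacctttATCGCGTTGCACGtcggagct
Abf1 match of MRPL51 (chrXVI:729636-729648, −155 to −143 bp): gtaagtttATCGCACTATACGttacggtg
Abf1 match of MRPL27 (chrII:768100-768112, −140 to −128 bp): ttattattATCACGTTTCACGgattattt
A match is a run of letters and was not shown to be bound here.

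The distance from the match to the centre of the highest window varied among these genes. The windows of MRPL10, MRPL3 and MRPL19 were centred at −35, −105 and −245 bp, and those of the Abf1 genes RSM24, MRPL51 and MRPL27 lay 65, 64 and 59 bp downstream of the match. These Abf1 genes were not typical in this. Elsewhere the window lay downstream of an Abf1 match only in MRPL16 (119 and 45 bp) and MRPL4 (36 bp). At all other Abf1 matches in members with a placed window, it was centred upstream of the match. RSM10 had a Reb1 match at −133 to −127 bp and its highest window at −475 bp. The window was centred within 75 bp of 10 of the 11 Reb1 matches in members (90.9%), against 86.2% of the matches in other genes. For Abf1 it was 19 of the 21 matches in genes with a placed window (90.5%), against 78.7% in other genes. Matches are not independent, as the 24 Abf1 matches lay in 19 members, and those of 1 gene share its window. In MRPL39 and MRPL32, 2 overlapping matches on opposite strands were each counted. Matches were searched only in the 250 bp where most windows also lay. MRPL15, the most open member, held neither match, and MRP20 held 2 Abf1 matches at −194 and −179 bp.

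Around the members' Abf1 matches, cytosines 15 to 75 bp away had a mean level of 26.3% in the CCMT library and 29.2% in the GCMT library, and those within 10 bp of the centre 17.6% and 22.2%, from 22 and 28 cytosines. Around Reb1 matches the cytosines to the side had 27.4% and 30.6%, and those at the match 32.2% and 36.0%. A cytosine near 2 matches of the same factor was counted for each. A lower level at the match was thus seen for Abf1 and not for Reb1, as in other genes, where the 4 values at the match were 13.1% and 18.5% for Abf1 and 31.8% and 36.6% for Reb1.

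Of the 8 other motifs, 6 were less frequent in the members, and GCGATGAG and CACGTG were present in shares close to those of all promoters. Runs of at least 8 A or 8 T were found in 12 members (17.9%), against 31.0% of all promoters, TATAAA in 22 (32.8%) against 43.4%, and AATTTT in 25 (37.3%) against 48.6%. CCAAT, the core of the site of the respiratory regulator Hap2/3/4/5, was found in 20 members (29.9%) against 35.4%. AAAATTTT, which holds AATTTT, was present in 2 members (2.99%) against 8.65%. GCGATGAG was present in 3 (4.48%) against 3.83%, CACGTG in 2 (2.99%) against 2.73%, and CGCGC in 5 (7.46%) against 9.83%.

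Other genes of mitochondrial translation were mixed. The 13 mitochondrial ribosomal proteins with other symbols, such as NAM9 or RML2, had open-region medians of 22.8% and 28.1%. Of these, 4 of 13 (30.8%) were in the upper quartile in both libraries, against 14.1% of all genes. Their ranks did not agree between the libraries, with a Pearson r of −0.17 and a Spearman rho of −0.21. The 8 translation factors had 17.7% and 19.8%, the 14 translational activators 21.4% and 20.3%, and the 13 aminoacyl-tRNA synthetases 15.5% and 11.6%. The synthetases thus had the lowest medians of these 4 lists in both libraries.

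The highest of these 48 genes were FMT1, the methionyl-tRNA formyltransferase, with 37.4% and 43.5%, ATP22, an activator of ATP synthase subunit translation, with 30.9% and 32.2%, and RML2, for uL2m, with 26.4% and 30.8%, among genes with at least 5 cytosines in each library. YML6, with 4 GC cytosines, had 33.0% and 30.3%. FMT1 was also high in its gene body, at 23.6% and 23.2%. The lowest were MRF1, the release factor, with 5.44% and 6.17%, PET111, an activator of COX2 translation, with 5.39% and 9.31%, and MSY1, the tyrosyl-tRNA synthetase, with 10.6% and 9.80%. In 29 of the 40 genes of this list whose highest window could be placed (72.5%), it lay within 200 bp of the codon. The share was 54.3% over all genes and 82.3% in members. The upstream distance of the 48 genes was also close to that of the members. Its median was 302 bp, against 306 bp in members, and it was under 400 bp in 68.8%, against 68.7%. Their open region overlapped a coding sequence in 25%, against 26.9% of members.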

How the data were processed

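Nuclei of S288C were treated with CCMT or GCMT, 1 library each. Reads were aligned by the authors to sacCer3 using BMap and in-house pipelines. Versions, filters and the handling of duplicates are not given in the sources used here. The authors deposited a read count (coverage) and a methylation fraction per cytosine, both without normalization. The fraction was multiplied by the count and rounded to whole methylated reads. The deposited positions count from 0. They were checked against the R64 reference, which has the same build, and every listed cytosine lay in CC or GC. The lowest deposited coverage was 5 reads. On the 16 nuclear chromosomes, the reads summed over cytosines were 28485123 for CCMT and 10967078 for GCMT, so single GCMT levels are less precise.

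Region levels were means over cytosines, with at least 3 per gene and library, and profiles were smoothed over 21 bp. Upper and lower quartiles were taken over genes with both levels. Highest windows (50 bp, 10-bp steps) needed at least 2 cytosines per library. The functions were tested on simulated libraries. Named members had at least 5 open-region cytosines in each library and were the 10 highest by their smaller and the 10 lowest by their larger percentile rank, and the 3 with the largest difference in rank. From the other translation genes, 3 at each end were named by the same ranks and cytosine minimum. Other members are named where a count or position singles them out, chosen after their values were seen. The members and lists were chosen with earlier results of these data known. Alternatives were at least 10 reads per cytosine, no GCC cytosines, pooled reads, thinned CCMT reads, regions from −200 to −50 and −350 to −50 bp, at least 5 cytosines, open regions outside coding sequence, and a comparison without cytosolic ribosomal protein genes. Levels relative to the sequence context, a set without MRP8 and RSM22, genes with an upstream distance of 200 to 400 bp and all alternatives for the highest window were added after the data had been seen. Computations were run in Python 3.11.15 with scipy 1.17.1, pandas 2.3.3 and numpy 2.4.6, and figures drawn with matplotlib 3.10.9.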

Additional observations from a re-analysis of the deposited data

How the results depend on the processing

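With the region from −200 to −50 bp, the members' medians rose to 24.0% (CCMT) and 24.1% (GCMT), the differences from other genes to 6.05 and 5.02 points, and 0 members were in the lower quartile in both libraries. From −350 to −50 bp the medians were 17.3% and 17.9% and the differences 1.43 and 1.05 points. Without GCC cytosines the medians were 21.8% and 23.1%, the GCMT difference 4.16 points, and 32 of 36 members had the highest window within 200 bp (88.9%, against 52.6% of other genes). Open regions outside coding sequence gave a CCMT median of 21.5%, with 5 of 46 members in the upper quartile in both libraries (10.9%, against 13.6% of all such genes) and 1 in the lower (2.17% against 15.5%). Among genes with an upstream distance of 200 to 400 bp the differences were 1.08 and 0.21 points, and of 35 members 2 were in the upper quartile of that class (5.71%, against 11.4% of all its genes), 2 in the lower (5.71% against 13.8%), 34 above the gene body (97.1% against 87.0%) and 18 at least 2 times the gene body (51.4% against 53.1%). The highest window lay within 200 bp in 32 of them (91.4%, against 76.7% of other genes). With at least 3 cytosines per window, 13 of 16 members had it within 200 bp (81.3%, against 49.2% of other genes). The direction of the median difference was kept in both libraries under every alternative, and 73 of the 96 values for the family stayed within the counting interval, or within 1.5 times for counts. For the named members it was 407 of 457, and shifting the region moved them most: MRP20 had 13.2% (GCMT) and MRPL50 26.7% (CCMT) from −200 to −50 bp. No paired analysis was possible because each enzyme had 1 library. Depth, 1 library per enzyme and the spacing of CC and GC limit single-gene values, and differences in rank among genes with overlapping intervals are not resolved.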
